A study of Mus musculus with 16 samples.

Results

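Polysomal RNA was set against total RNA of the same muscle in Eif6 heterozygous mice (Het, Eif6+/-), in which 1 copy of the gene works, to ask which classes of mRNA were rich and which were poor on polysomes when this factor is reduced. The comparison used 6 of the 16 arrays of the series: Het polysome replicates 1 to 3 and Het whole-muscle replicates 1 to 3, taken from the gastrocnemius, the large calf muscle, of 3 mice. The mice were male C57BL6 animals 8 to 16 weeks old that carried the Eif6 mutation in every tissue, with wild-type (WT, Eif6+/+) littermates as the other genotype of the study. Neither genotype received a treatment. Polysome RNA came from pooled sucrose-gradient fractions that hold mRNAs with several ribosomes, from muscle lysed with cycloheximide, which holds ribosomes in place on the mRNA. The mutation is not restricted to muscle, and a muscle lysate holds every cell type of the tissue.

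An mRNA enters polysomes when initiation is frequent enough to keep several ribosomes on it, so its share in polysomal RNA relative to total RNA is a common reading of how heavily it is translated. Eif6 encodes eukaryotic initiation factor 6, which binds the large ribosomal subunit and keeps it from joining the small subunit until it is released, and which also acts in the making of large subunits. The mRNAs of ribosomal proteins and several translation factors begin with a 5′ terminal oligopyrimidine (TOP) tract, a run of C and T through which their translation responds to growth signals. The mRNAs encoded by mitochondrial DNA (mtDNA) are translated inside mitochondria on ribosomes of another kind and do not belong to cytosolic polysomes.

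The sequences of some mtDNA probes and of a few ribosomal protein gene starts are shown first, because these classes had low median ratios. Members that were not called lower are included, and the lowest ratio of a single gene lay elsewhere. The probes for 5 mtDNA-encoded mRNAs, of 60 bases each on mm9, are printed with each G in capitals. All but the last read mRNAs copied from the heavy strand of mtDNA, which contain few G. The last reads ND6, the protein-coding mRNA copied from the light strand, on the minus strand of the file coordinates.
ND1, chrM:2898-2957: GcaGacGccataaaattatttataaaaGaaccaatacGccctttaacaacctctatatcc
COX3, chrM:9072-9131: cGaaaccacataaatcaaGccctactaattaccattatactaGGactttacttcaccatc
ND4, chrM:11370-11429: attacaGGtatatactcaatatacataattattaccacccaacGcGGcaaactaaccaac
ND5, chrM:13402-13461: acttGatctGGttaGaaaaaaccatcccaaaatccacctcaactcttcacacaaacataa
ND6, chrM:13552-13611: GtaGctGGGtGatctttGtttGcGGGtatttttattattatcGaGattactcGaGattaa

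The ND6 probe held 15 G and the ND1 probe 5 G among 60 bases. The starts of 8 ribosomal protein genes follow, as windows of 30 bases from 10 bases before the annotated RefSeq start (GRCm38.p6), written 5′ to 3′ along the gene with the longest run of C or T in capitals. The first 4 genes were called lower in Het polysomes and the last 4 were not, and all were chosen because a run of at least 7 C or T lay in the window.
Rps12, chr10:23787190-23787219, minus: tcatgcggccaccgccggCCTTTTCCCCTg
Rpl12, chr2:32961702-32961731, plus: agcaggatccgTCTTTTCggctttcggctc
Rpl22l1, chr3:28805498-28805527, plus: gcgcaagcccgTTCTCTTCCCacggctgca
Rpl13a, chr7:45128726-45128755, minus: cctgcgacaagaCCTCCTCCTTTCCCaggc
Rpl27a, chr7:109519185-109519214, plus: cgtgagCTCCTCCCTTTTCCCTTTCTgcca
Fau, chr19:6057937-6057966, plus: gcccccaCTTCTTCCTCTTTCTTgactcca
Rpl38, chr11:114668570-114668599, plus: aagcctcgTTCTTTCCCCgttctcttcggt
Rps9, chr7:3704031-3704060, plus: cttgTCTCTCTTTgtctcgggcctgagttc

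Of all 32851 RefSeq promoter entries, 17.9% held a run of at least 7 C or T on the gene's strand in the same window of 30 bases. Only 53 of the 78 ribosomal protein genes measured on all 6 arrays had an entry (67.9%), so a share over these genes is void. The windows are a description, and the annotated starts may differ from those used in muscle.

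Signals and ratios are on the log2 scale. A signal is the quantile-normalized log2 intensity of a probe on 1 array, and a ratio is the polysome signal minus the whole-muscle signal of the same mouse, so that a ratio of 1 is a signal 2-fold higher in polysomes. Ratios are relative: both RNAs were labelled and scaled to the same distribution, and a ratio of 0 is not an equal amount of RNA per muscle. A probe was tested where it was well above background on all 3 arrays of either group. A call needed a limma adjusted p under 0.05 (Benjamini-Hochberg over all tested probes, n = 3 mice) and an absolute mean ratio above 1. Mean ratios are given ± SD over the 3 mice. Each mouse gave 1 array per RNA, so the spread holds both the differences between mice and those between arrays.

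The Het polysome arrays were all brighter before normalization than the Het whole-muscle arrays: the 75th percentile of the linear processed signal was 73.6, 106.4 and 63.1 in polysomes and 33.0, 13.5 and 19.1 in whole muscle. Brightness and RNA fraction therefore moved together in Het and their parts in the ratios cannot be told apart from these 6 arrays alone. Pearson correlations over the tested probes were 0.968 to 0.989 among polysome arrays, 0.941 to 0.961 among whole-muscle arrays and 0.920 to 0.964 between the groups. Markers of muscle fibres were measured in full, 20 of 20 on all 6 arrays, with a median ratio of 0.03. On 475 pairs of probes toward the 5′ and 3′ side of the same gene, the 5′ minus 3′ difference was -0.64, -0.62 and -0.21 in polysomes and -0.80, -0.65 and -0.36 in whole muscle of mice 1, 2 and 3, and its part in the ratios was not tested. No spot was saturated.

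Eif6 was lower in Het than in WT, as the labels have it. Its probe of highest signal (chr2:155645718-155645777, mm9) read 9.41, 9.28 and 9.17 in Het polysomes and 8.69, 8.70 and 8.51 in Het whole muscle. In WT it read 10.5, 11 and 10.2 in polysomes and 9.95, 9.44 and 9.26 in whole muscle, so every Het array lay below every WT array of the same RNA. The remaining Eif6 mRNA had a ratio of 0.65 ± 0.07, which missed the call (adjusted p 0.051, limma), and a second probe gave 0.62.

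Of 18817 probes tested, 742 were higher and 891 lower in Het polysomes, 8.68% in all. Of the 742 higher probes, 184 had no whole-muscle array well above background. Counts over genes and gene lists are therefore restricted to those well above background on all 6 arrays, with 1 probe per gene, that of the highest mean signal. Of these 10199 genes, 291 (2.85%) were higher and 667 (6.54%) lower in polysomes, and the median ratio was 0.06. Among the 7258 genes with a curated mRNA accession (NM), 216 (2.98%) were higher and 224 (3.09%) lower, with a median of 0.16. The excess of lower genes thus came from genes without such an accession.

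**Figure D1:**
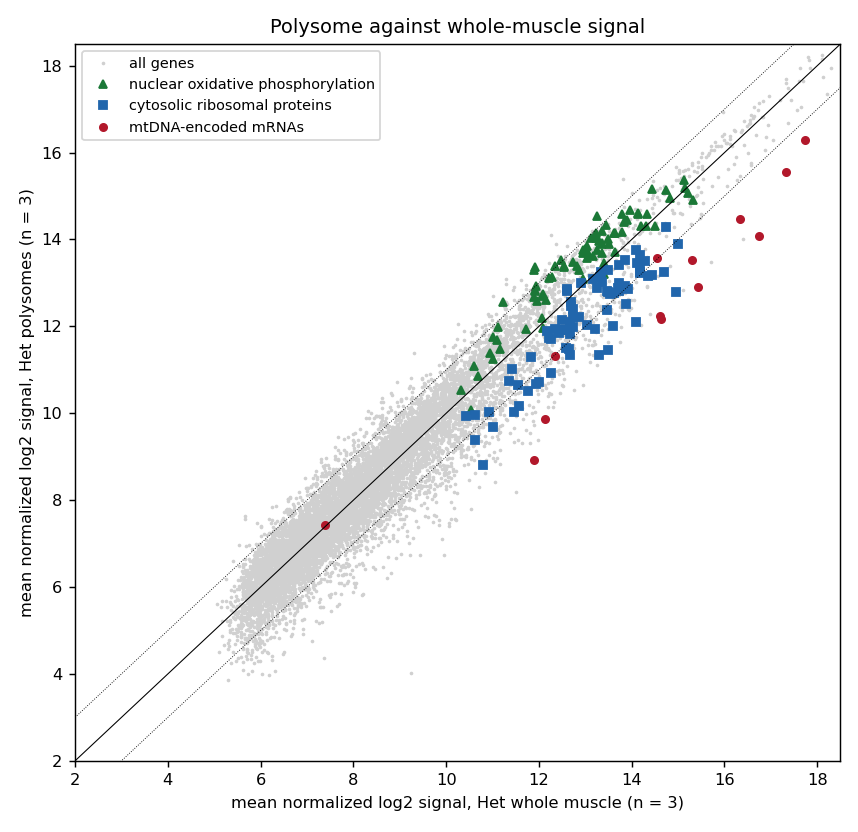
Mean normalized log2 signal in Het polysomes (y axis) against Het whole muscle (x axis), n = 3 mice each, for 10199 genes; the solid line marks equal signals and the dotted lines a log2 ratio of 1 and -1. Most mtDNA-encoded mRNAs (circles) and 75 of 78 cytosolic ribosomal protein mRNAs (squares) lie under the line of equality, and 72 of 78 nuclear oxidative phosphorylation mRNAs (triangles) lie above it.

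The mRNAs of mtDNA were the class with the lowest ratios of all lists with 10 or more genes. Of the 13 mRNAs, 11 were lower in polysomes, against 6.54% of all genes, and the median ratio was -1.88, with medians of -2.09, -1.61 and -2.18 in the 3 mice. ND1, a subunit of complex I, had signals of 8.51, 9.65 and 8.59 in polysomes and 12.20, 11.66 and 11.81 in whole muscle. The groups did not overlap, and the mean ratio was -2.97 ± 0.87, a 7.85-fold lower signal (adjusted p 0.032, limma). COX3, a subunit of cytochrome c oxidase, read 14.03, 14.27 and 13.97 in polysomes against 16.60, 16.70 and 16.92 in whole muscle (ratio -2.65 ± 0.27, 6.30-fold lower, adjusted p 0.032, limma).

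The other called mtDNA mRNAs encode subunits of complexes I, III and IV and of ATP synthase. Complex I subunits ND4 (-2.53), ND3 (-2.37), ND2 (-1.76) and ND5 (-1.04), cytochrome b of complex III (CYTB, -1.88), cytochrome c oxidase subunits COX2 (-1.77) and COX1 (-1.45), and the ATP synthase subunits ATP6 (-2.45) and ATP8 (-2.25) all fell. The file coordinates place the ND3 probe in chromosome 1, so that probe may also read a nuclear copy. ND4L had a ratio of -0.97 and was not called (adjusted p 0.052, limma), but with 75th percentile scaling of each array in place of quantile normalization it was at -1.33 and called (adjusted p 0.021).

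ND6 was the exception among the 13. Its signals of 6.82, 7.38 and 8.09 in polysomes ran through the same range as 6.86, 7.42 and 7.88 in whole muscle, with a ratio of 0.04 ± 0.15 (adjusted p 0.84, limma). It was also the dimmest mRNA of the list, while COX1 was measured at 16.44, 16.11 and 16.30 in polysomes and 17.62, 17.62 and 17.95 in whole muscle. Levels of different probes are not comparable, and whether the ND6 probe reads other RNA of that strand was not tested. In WT mice the medians over the 13 mRNAs were -3.66, -4.96 and -2.65, each below the lowest Het median. The difference between genotypes was not tested for the list; for ND1 it had an adjusted p of 0.16 and for COX3 of 0.34 (limma, 3 Het and 3 WT ratios).

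**Figure D2:**
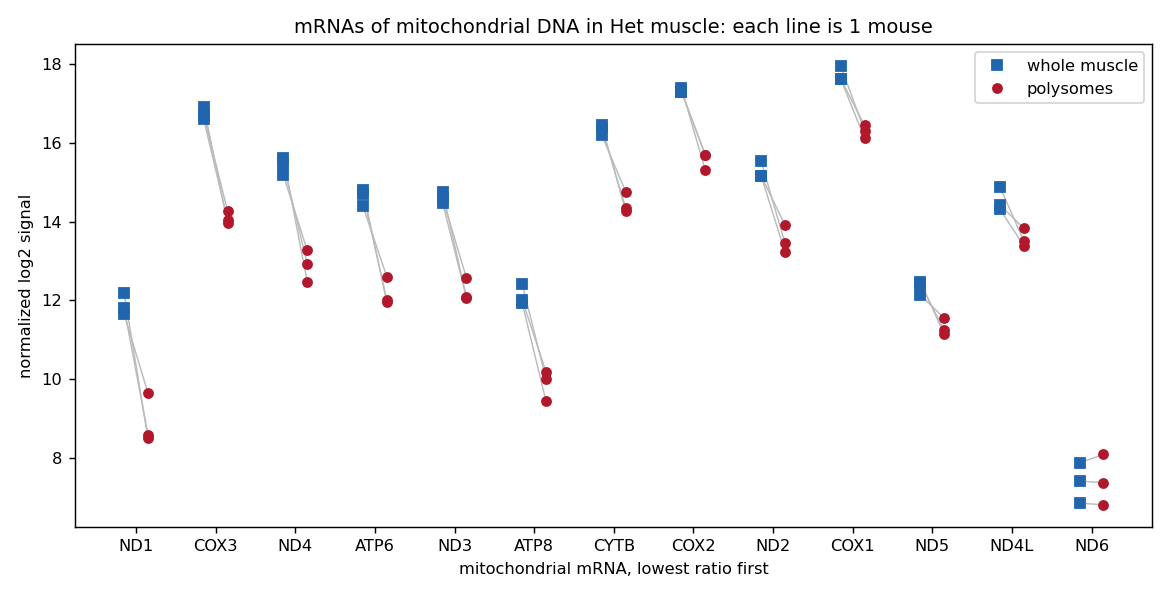
Normalized log2 signal (y axis) of the 13 mtDNA-encoded mRNAs in whole muscle (squares) and polysomes (circles) of the 3 Het mice; each line joins the signals of 1 mouse and the mRNAs are ordered by mean ratio. Signals are lower in polysomes of every mouse for 12 of the 13 mRNAs, and the ND6 signals overlap.

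The mRNAs of cytosolic ribosomal proteins were also poor on polysomes. Of the 78 measured, 25 (32.1%, against 6.54% of all genes) were lower and none was higher, and 3 had a ratio above 0 (3.85%, against 53.8% of all genes). The median ratio was -0.74 (-0.56, -0.70 and -0.96 in the 3 mice), and -1.17 with 75th percentile scaling. The same scaling moved the median of the 15 other TOP mRNAs to -0.74. Rplp0, the stalk protein of the large subunit, had signals of 12.89, 12.92 and 12.60 in polysomes and 14.86, 15.06 and 14.97 in whole muscle, a ratio of -2.16 ± 0.20 (4.47-fold lower, adjusted p 0.032, limma). Its 3 probes gave -2.17, -2.16 and -1.98.

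Proteins of both subunits were among the lowest. Rps12 of the small subunit read 11.76, 11.53 and 11.08 in polysomes against 13.49, 13.52 and 13.43 in whole muscle, with no overlap (ratio -2.03 ± 0.31, adjusted p 0.032, limma). Rps20 (-2.0) and Rps19 (-1.99) of the small subunit and Rpl12 (-1.94) of the large subunit also fell. At the other end Rps9, of the small subunit, had polysome signals of 12.91, 12.96 and 12.68 and whole-muscle signals of 12.63, 12.58 and 12.58, a ratio of 0.25 ± 0.14 that did not pass the test (adjusted p 0.26, limma). Ribosomal protein genes have many processed copies in the genome, and a probe can also bind transcripts of such copies. The WT medians of this list were -0.39, -0.82 and -0.88, which overlapped those of the Het mice.

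The 15 other TOP mRNAs ranged from -2.40 to 0.67. Of them 6 (40%, against 6.54% of all genes) were lower and none higher, with a median of -0.44 (-0.48, -0.36 and -0.64 in the 3 mice). Tpt1, the translationally controlled tumour protein, had signals of 14.09, 14.41 and 13.50 in polysomes and 16.49, 16.56 and 16.15 in whole muscle, a 5.28-fold lower signal (ratio -2.40 ± 0.25, adjusted p 0.032, limma), and its 3 probes gave -2.52, -2.40 and -2.22. Eif3e (-1.69) and Eif3f (-1.44), subunits of initiation factor 3, Eef1b2 (-1.42), an exchange factor of elongation, the poly(A) binding protein Pabpc1 (-1.29) and Gnb2l1 (-1.0), the ribosome-bound scaffold RACK1, were the other called members.

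Other elongation factors were not called. Eef1a1, which brings aminoacyl-tRNA to the ribosome, had a ratio of -0.44, Eef2, the translocase, -0.36 and Eef1g, a partner of the exchange factors, -0.19. These values depended on the scaling: with 75th percentile scaling they were -0.67, -0.87 and -0.74, which passed the test (adjusted p of 0.042 to 0.048, limma) but not the limit of 1. Eef1d, another exchange factor, had 0.67 (adjusted p 0.057, limma), and 0.19 with that scaling. Npm1, a nucleolar chaperone, read 10.50, 10.59 and 10.54 in polysomes and 10.53, 10.55 and 10.56 in whole muscle by the probe of highest signal, while its other probes gave -0.08, -0.76 and -0.41.

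**Figure D3:**
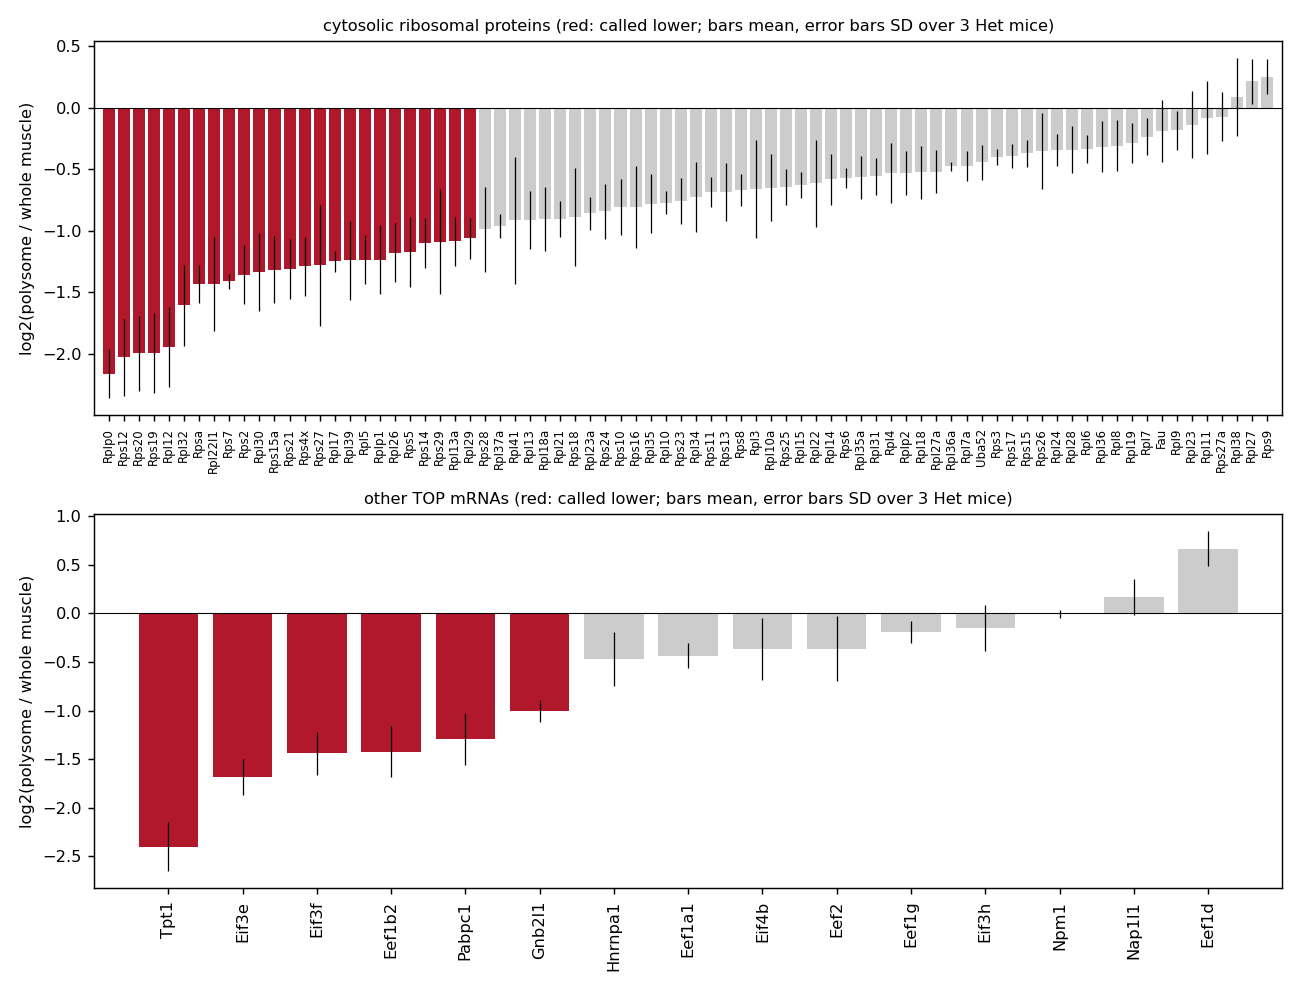
Mean log2 ratio of polysome to whole-muscle signal (y axis) for 78 cytosolic ribosomal protein mRNAs (upper panel) and 15 other TOP mRNAs (lower panel) in Het muscle; error bars are the SD over 3 mice and red bars are mRNAs called lower. Called members are 25 in the upper and 6 in the lower panel, and the ratios run from -2.16 (Rplp0) to 0.25 (Rps9) and from -2.40 (Tpt1) to 0.67 (Eef1d).

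Initiation factor mRNAs as a class lay near the other mRNAs, with a median of 0.22 over 43 genes (0.056 with 75th percentile scaling) against 0.16 for genes with a curated mRNA accession. Of them 2 were higher (4.65%, against 2.85% of all genes) and 3 lower (6.98%, against 6.54%). The 3 lower were all subunits of factor 3: Eif3e and Eif3f, which are also in the TOP list, and Eif3i (-1.25), with 7.01, 7.13 and 7.34 in polysomes against 8.36, 8.52 and 8.33 in whole muscle (adjusted p 0.032, limma). The higher were Eif3j2, a copy of the loosely bound factor 3 subunit j, at 1.26, and Eif4g1, the scaffold of the cap-binding complex, at 1.1 (0.76 and so not called with 75th percentile scaling). For the mitochondrial ribosome, whose proteins are encoded in the nucleus and made in the cytosol, the median over 75 mRNAs was 0.25 (0.093 with 75th percentile scaling) and 2 were lower (2.67%, against 6.54% of all genes), Mrpl42 (-1.17) and Mrpl30 (-1.03).

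Nuclear mRNAs of energy metabolism had the opposite sign from those of mtDNA. For the nuclear subunits of the respiratory chain and ATP synthase, 72 of 78 ratios (92.3%) were above 0, 6 were higher against 2.85% of all genes, none was lower, and the median was 0.55 (0.62, 0.53 and 0.57 in the 3 mice). Uqcrc1, a core protein of complex III, had signals of 13.42, 13.39 and 13.30 in polysomes and 12.09, 11.74 and 11.90 in whole muscle. The groups did not overlap and the ratio was 1.46 ± 0.17 (2.76-fold higher, adjusted p 0.032, limma). Ndufb3 (1.32), Ndufa5 (1.27) and Ndufs5 (1.05) of complex I and Atp5d (1.05) of ATP synthase were also called higher. Ndufs8 of complex I had the lowest ratio, -0.45, and was not called.

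Enzymes that feed the chain showed the same sign. Of 25 mRNAs of the citric acid cycle and pyruvate dehydrogenase, 3 were higher (12%, against 2.85% of all genes) and none lower, with a median of 0.59. They were Ogdh (1.17), the first enzyme of the 2-oxoglutarate dehydrogenase complex, Idh3b (1.07), a subunit of isocitrate dehydrogenase, and the pyruvate dehydrogenase kinase Pdk2 (1.1). Of 20 mRNAs of fatty acid oxidation 4 were higher (20%, against 2.85%), with a median of 0.72. Hadh, which oxidises hydroxyacyl-CoA, read 11.37, 11.38 and 11.80 in polysomes against 9.78, 10.23 and 10.44 in whole muscle (ratio 1.37 ± 0.22, adjusted p 0.032, limma), and Etfb (1.12), Decr1 (1.02) and Acadvl (1.0) also rose.

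Glycolysis and glycogen mRNAs were closer to the background, with a median of 0.26 over 24 genes, although 3 were higher (12.5%, against 2.85% of all genes): lactate dehydrogenase B (Ldhb, 1.29), glycogen synthase (Gys1, 1.16) and the phosphorylase kinase subunit Phkg1 (1.02). Hexokinase 1 (Hk1) had the lowest ratio of that list, -0.98, and was not called, but was with 75th percentile scaling (-1.34, adjusted p 0.012, limma). With that scaling the median of the respiratory chain list was 0.14, of the citric acid cycle 0.25, of fatty acid oxidation 0.51 and of glycolysis -0.07, so that the last changed sign. Of the called genes named from these lists, Uqcrc1 (1.02) and Hadh (1.1) stayed called under that scaling. The 3 citric acid cycle genes, Ndufs5, Atp5d and Acadvl no longer passed the test (adjusted p of 0.052 to 0.077, limma), and the others passed it with ratios of 0.69 to 0.91, under the limit of 1. In WT mice the median of the respiratory chain list was 0.62. For fatty acid oxidation the WT medians were 0.27, -0.29 and 0.29 and for the citric acid cycle 0.23, -0.62 and 0.35, without 1 sign in all mice.

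**Figure D4:**
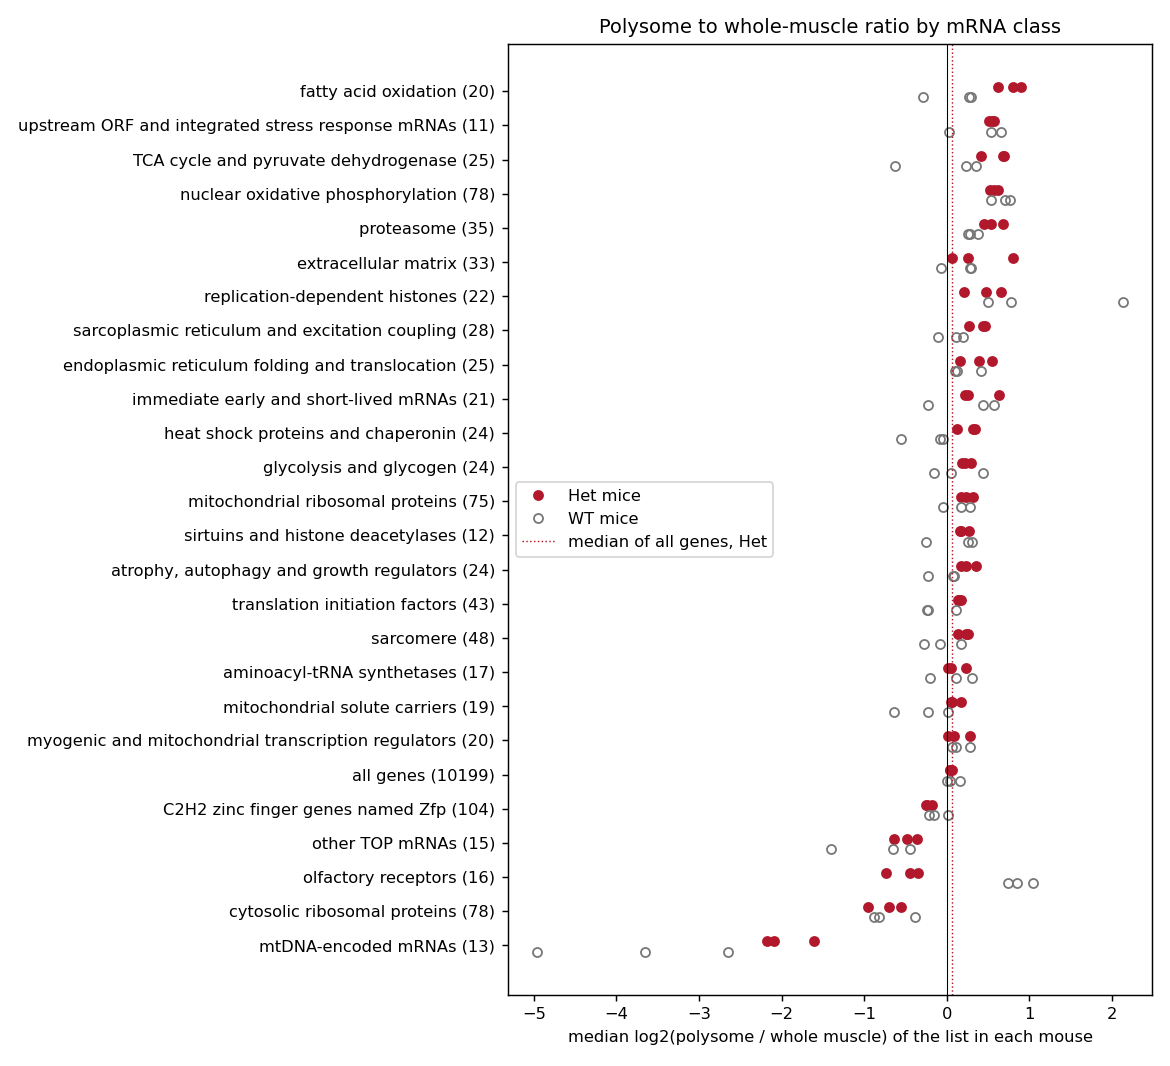
Median log2 ratio of polysome to whole-muscle signal (x axis) of each gene list in each mouse, for 3 Het mice (filled circles) and 3 WT mice (open circles), with the number of genes measured on all 6 Het arrays in parentheses; the dotted line is the median of all genes in Het. The mtDNA list is farthest to the left in both genotypes, and the olfactory receptor list lies left of 0 in Het and right of 0 in WT.

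The contractile apparatus sat near the middle of the distribution. Over 48 sarcomere mRNAs the median was 0.18 (-0.17 with 75th percentile scaling), with 4 higher (8.33%, against 2.85% of all genes) and none lower. The higher ones were Pdlim5 (1.30) and Ldb3 (1.20), scaffolds of the Z-disc, the slow-fibre troponin T Tnnt1 (1.27) and the myosin light chain kinase Mylk2 (1.1). With 75th percentile scaling Pdlim5 (1.01) stayed called, Ldb3 (0.74) and Tnnt1 (0.84) fell under the limit of 1, and Mylk2 (0.62) missed the test as well (adjusted p 0.064, limma). Xirp2, an actin-binding protein, had the lowest ratio of the list, -1.48 ± 0.80, with mouse 2 at -0.57 and the others at -2.02 and -1.87, and was not called (adjusted p 0.059, limma), but was with 75th percentile scaling (-1.54, adjusted p 0.031). For calcium handling and excitation the median over 28 mRNAs was 0.37 (0.14 with 75th percentile scaling) and 1 was higher (3.57%, against 2.85% of all genes), Casq2, the slow-fibre calsequestrin (1.08). The 24 regulators of muscle mass had a median of 0.22 (0.065 with 75th percentile scaling). Of them only myostatin (Mstn), which limits muscle growth, was called (4.17% lower, against 6.54% of all genes), at -1.01 ± 0.07 with 7.85, 7.76 and 7.28 in polysomes and 8.89, 8.68 and 8.34 in whole muscle. Its ratio lay at the limit of 1, and with 75th percentile scaling (-0.998) it was not called. None of 20 myogenic and mitochondrial transcription regulators was called, and their median was 0.07 (0.039 with 75th percentile scaling). Pprc1, a coactivator of the PGC-1 family, was the lowest at -1.38, and was called with that scaling (-1.39, adjusted p 0.031, limma).

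Secreted and membrane proteins are made on ribosomes bound to the endoplasmic reticulum. The median over 33 extracellular matrix mRNAs was 0.46, but it varied among the mice (0.25, 0.06 and 0.80). It was 0.28 without mouse 3, 0.30 with 75th percentile scaling, 0.72 within slide 1 and 0.15 within slide 2. Of these mRNAs 2 were higher (6.06%, against 2.85% of all genes), matrix Gla protein (Mgp, 1.30) and the metalloproteinase inhibitor Timp2 (1.01; 0.64 and not called with 75th percentile scaling). The 8 fibroblast and tendon markers, of which some are matrix genes themselves, had medians of 0.57, 0.21 and 1.01 in the same mice, and their part in the matrix list was not tested. Over 25 mRNAs of translocation and folding the median was 0.37 and none was called in either direction. The proteasome list had a median of 0.54 over 35 genes (0.26 with 75th percentile scaling), and 4 subunits (11.4%, against 2.85% of all genes) rose, with Psmd3 of the regulatory particle highest (1.23; 12.85, 12.91 and 13.08 against 11.75, 11.76 and 11.65). With that scaling its ratio was 0.76 and no proteasome subunit among the 4 had a ratio above 1.

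Of 21 immediate early and short-lived mRNAs 3 were higher (14.3%, against 2.85% of all genes) and none lower, with a median of 0.35. Gadd45g, an inducible stress-response gene, had signals of 12.84, 12.79 and 13.29 in polysomes and 11.01, 11.17 and 11.65 in whole muscle, a ratio of 1.70 ± 0.12 (3.24-fold higher, adjusted p 0.032, limma). Gadd45b (1.16) and Jund (1.11; 0.98 and so not called with 75th percentile scaling), of the AP-1 family, were the others. Among 11 mRNAs that carry upstream reading frames or take part in the integrated stress response the median was 0.59 (0.36 with normexp background correction). Of them 1 was higher (9.09%, against 2.85% of all genes). This was Ppp1r15a, the subunit that directs dephosphorylation of initiation factor 2, at 1.26 ± 0.05. Of 17 aminoacyl-tRNA synthetases 1 was higher (Sars, 1.01; 5.88%, against 2.85% of all genes), and the median was 0.14. With 75th percentile scaling Sars was at 0.80, under the limit of 1, and the median at 0.024.

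The 104 genes named Zfp, mostly zinc finger transcription factors, had a median of -0.24 (-0.15 with normexp background correction), and 5 were lower (4.81%, against 6.54% of all genes), led by Zfp433 (-1.47). The 6 mRNAs with an iron-responsive element had a median of -0.66. Of them only ferritin heavy chain (Fth1), the iron store whose mRNA is held back by iron regulatory proteins, was lower (16.7%, against 6.54% of all genes). Fth1 read 13.06, 12.63 and 12.81 in polysomes and 15.08, 15.14 and 15.06 in whole muscle (ratio -2.26 ± 0.24, 4.79-fold, adjusted p 0.032, limma). The 24 heat shock and chaperonin mRNAs had a median of 0.26 (0.074 with 75th percentile scaling), and 16 were above 0. The chaperonin subunit Tcp1 was the only one called (4.17%, against 6.54% of all genes lower) and fell by 1.51. The 19 mitochondrial solute carriers had a median of 0.11 (-0.00115 with 75th percentile scaling and 0.065 with normexp), and 12 were above 0. Slc25a51 was the only one called (5.26%, against 6.54%) and fell by 1.85, while a second Slc25a51 probe gave -0.67. Of 12 sirtuins and histone deacetylases none was called, with a median of 0.22, and this list holds genes that the study followed in these samples. Replication-dependent histone mRNAs, which lack a poly(A) tail, had a median of 0.45 over 22 genes (0.15 with 75th percentile scaling) and no calls.

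Genes of the lncRNA, small nuclear RNA and pseudogene types had larger shares of lower calls than protein-coding genes, and pseudogenes larger shares of higher calls too, differences that were not tested. By RefSeq gene type, which 7752 of the 10199 genes had, 249 of 7482 protein-coding genes (3.33%) were lower, against 14 of 134 lncRNA genes (10.4%), 16 of 60 pseudogenes (26.7%), 11 of 64 transcribed pseudogenes (17.2%) and 3 of 3 small nuclear RNA genes. None of 5 genes of type misc_RNA, of which 1 was higher, none of 2 ribosomal RNA genes and none of the single genes of the telomerase RNA and V segment types was lower. Rs5-8s1, named for a ribosomal RNA and called lower, is not among those 2 genes. Of the 2447 genes without a matched type, 374 (15.3%) were lower. Higher calls were 2.91% of protein-coding genes, 8.33% of pseudogenes and 4.69% of transcribed pseudogenes. No lncRNA was higher, and their median ratio was -0.35. The called pseudogene Rps12-ps16 (-2.32) is named as a copy of Rps12, and its probe may read the parent mRNA. The 1180 probes named only by a genomic position, a group defined after the names in the files were seen, had a median of -0.32 with 5.85% lower, against 6.54% of all genes.

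Rnu3b1, a U3 small nucleolar RNA that works in the nucleolus on ribosomal RNA, had the lowest ratio of all named genes. Its signals were 4.76, 3.40 and 3.89 in polysomes and 8.65, 9.17 and 9.93 in whole muscle, far apart in every mouse (ratio -5.23 ± 1.17, 37.6-fold lower, adjusted p 0.032, limma). The spliceosomal RNAs Rnu12 (-1.30) and Rnu1b6 (-1.06) were also lower. Rs5-8s1, named for 5.8S ribosomal RNA, read 5.82, 5.70 and 8.69 in polysomes and 8.74, 10.17 and 10.98 in whole muscle, a ratio of -3.22 ± 1.13 with polysome array 3 close to whole-muscle array 1. Labelling by the kit used here starts from poly(A), which these RNAs lack, so their signals are not comparable in kind with those of mRNAs.

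Among long non-coding RNAs the imprinted H19 was lower, at 10.40, 11.57 and 8.84 in polysomes and 12.65, 12.55 and 11.76 in whole muscle. Mouse 2 had a smaller difference than the others (ratio -2.05 ± 0.99, adjusted p 0.049, limma), and the 6 H19 probes gave -1.49 to -2.42. The 7 long non-coding RNAs of the list had a median of -0.50 (-0.31 with normexp) and H19 was the only one called (14.3%, against 6.54% of all genes lower). Of the others, Airn (-1.30; called with 75th percentile scaling, -1.35, adjusted p 0.044, limma), Meg3 (-0.71) and Dleu2 (-0.50) had ratios below 0, and Peg13 (0.96) and the nuclear Neat1 (0.67) above 0. Of 4 snoRNA host transcripts only Snhg6 was lower (25%, against 6.54% of all genes). Its ratio was -2.47, with 6.85, 7.09 and 6.28 in polysomes against 9.0, 9.43 and 9.22 in whole muscle. Gas5, a TOP transcript without a conserved protein, had -0.97.

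With Riken and Gm names left out, the 12 highest ratios of called genes belonged to genes of several functions. Acta2, smooth muscle actin, was first, with 11.52, 10.97 and 11.65 in polysomes and 9.46, 9.26 and 9.22 in whole muscle (ratio 2.07 ± 0.36, 4.2-fold higher, adjusted p 0.032, limma). Pfn1, an actin-binding protein, was next (1.96), although its second probe gave 0.45. Secreted proteins among the 12 were Tinagl1 (1.90), a matrix protein, Pcsk1n (1.84), a propeptide of secretory granules, and apolipoprotein E (Apoe, 1.79). Bcat2, the mitochondrial enzyme that starts the breakdown of branched-chain amino acids, had 1.79, the fatty acid carrier Fabp4 1.78, and dystroglycan (Dag1), which anchors the fibre to its matrix, 1.62. Gadd45g, Crip1 (1.69), Tmem233 (1.66) and H2-K2 (1.63) complete the list.

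Acta2 and Fabp4 are markers of cells other than muscle fibres, so these genes are counted again here. Ratios were above 0 for 6 of 9 adipocyte, 7 of 8 fibroblast and tendon and 10 of 13 immune cell markers. The same held for 7 of 9 endothelial, 2 of 3 Schwann cell and 1 of 2 satellite cell markers, against 53.8% of all genes. All 6 smooth muscle and pericyte markers had ratios above 0 and 2 were higher (Acta2 and Tagln; 33.3%, against 2.85% of all genes); their summed linear signal was 5050 to 8540 in polysomes and 2540 to 3050 in whole muscle. For adipocytes 2 of 9 (22.2%) were higher, Fabp4 and Cfd (Cfd was at 0.97 and not called with 75th percentile scaling), with sums of 31400 to 35000 against 13100 to 18400, and for fibroblasts and tendon 1 of 8 (Thy1; 12.5%), with 29000 to 35700 against 15500 to 23500. Of 13 immune cell markers 2 were higher (Cd74 and C1qc; 15.4%), with sums of 3530 to 8370 against 3150 to 4220, and none of 9 endothelial, 3 Schwann cell and 2 satellite cell markers was called. For muscle fibres none of 20 was called and the sums overlapped, 1790000 to 1960000 against 1740000 to 1880000, as did those of red blood cell markers, 54200 to 73800 against 64700 to 72800. In bulk RNA, more cells of a type in a sample and more RNA per cell cannot be told apart, and the part of these cells in the ratios was not tested.

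With Riken and Gm names left out, the 12 lowest ratios of called genes were those of Rnu3b1, Rs5-8s1, Snhg6, Tpt1, the mtDNA mRNAs ND1, COX3, ND4, ATP6 and ND3, and 3 further mRNAs. These were Ccng1 (-2.49), a p53 target, with 9.28, 10.03 and 8.66 in polysomes and 12.11, 11.80 and 11.52 in whole muscle, Prkrir (-2.48) and Cyp2r1 (-2.38), a vitamin D hydroxylase. The Ccng1 signals were lower in every polysome array than in any whole-muscle array.

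**Figure D5:**
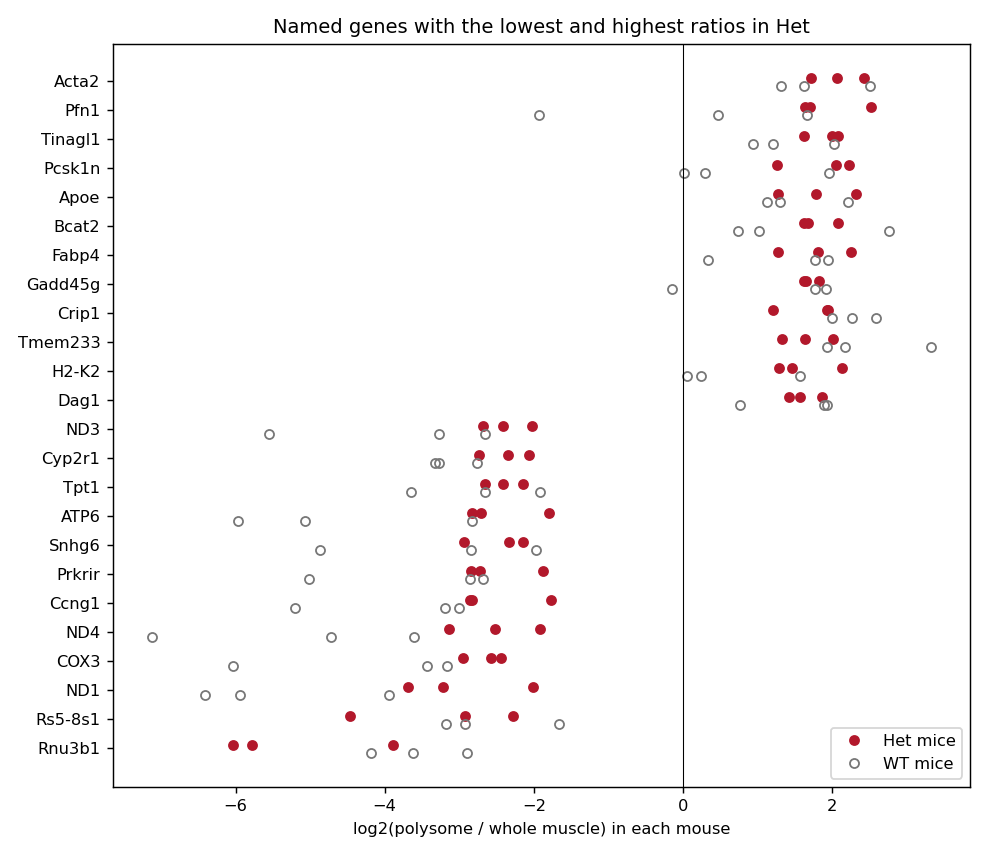
Log2 ratio of polysome to whole-muscle signal (x axis) in each of 3 Het mice (filled circles) and 3 WT mice (open circles) for the 12 highest and 12 lowest called genes in Het, Riken and Gm names left out. All Het ratios of a gene lie on 1 side of 0, and among the 12 highest genes Pfn1 and Gadd45g have a WT mouse below 0.

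The genes called in Het mostly had the same sign in the WT muscle, whose arrays share no sample with those of Het. Of the 291 higher genes, 284 had a mean WT ratio above 0 and 239 were above 0 in all 3 WT mice, and of 664 lower genes with a WT value 633 were below 0 on average and 579 in all 3 mice. Over all 10199 genes the median WT ratio was 0.035, and the shares of all genes above or below 0 in WT were not counted. The arrays of both genotypes were normalized together. For the ratio itself no difference between the genotypes passed: 0 of 18795 probes (0%) had an adjusted p under 0.05 by limma, 3197 had an unadjusted p under 0.05, and the smallest adjusted p was 0.102. The methods' t-test gave 0 after adjustment and 2611 before. Polysome arrays were not all brighter in WT, with 75th percentiles of 54.7, 24.1 and 66.1 against 150.1, 57.1 and 42.3 in whole muscle.

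The ratio varied a little with signal. In 5 bins of equal size by mean signal, from dim to bright, the median ratios were -0.12, 0.06, 0.08, 0.13 and 0.18, and 105 genes of the dimmest and 211 of the brightest bin were lower. The part of signal in the low ratios of the bright mtDNA and ribosomal protein mRNAs was not tested. The calls rest on 3 mice together: without any 1 of them no gene was called, with smallest adjusted p of 0.125, 0.0598 and 0.167 without replicates 1, 2 and 3 (limma). The direction of all 958 called genes stayed, and 893, 910 and 799 of them kept an unadjusted p under 0.05 (limma) and an absolute ratio above 1. With the spread modelled on signal (limma trend), 724 probes were lower and 0 higher, so that all calls of higher genes depended on this choice. With slide as a term, or with no filter on dim probes, 0 probes were called as well. With brightness as a term, in 6 ratios of both genotypes, 0 probes were called and the mtDNA median was -3.44.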

How the data were processed

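Total RNA of whole gastrocnemius and RNA of pooled polysome fractions were hybridised in 1 colour (Cy3) to Agilent mouse arrays. The authors read the scanned images with Feature Extraction 11.0.1.1, and the deposited files hold spot intensity values, with probe positions on mm9. The authors' own table holds log2 values and was used as an alternative. From the deposited intensity, the processed signal was put on the log2 scale, and the 12 arrays of both genotypes and both RNAs were brought to 1 distribution by quantile normalization, as the methods of the study name; control spots and outlier flags were left out and spots of a probe averaged. Monosome arrays were not used here.

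Ratios within a mouse were tested against 0 in limma 3.58.1 (R 4.3.3; lmFit, eBayes) with Benjamini-Hochberg adjustment. The pairing comes from the design description, which states that each mouse gave each RNA. Same-numbered arrays deviated from their group means together (r 0.23, 0.20 and 0.51). Without the replicate block, 635 probes were higher and 832 lower. The 2 arrays of each mouse lay on different slides, and slides held both RNAs.

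Genes named in the text are the 12 highest and 12 lowest called genes on all 6 arrays with a symbol (lincRNA, Riken and Gm names left out), the extremes of each list, and Eif6; the called members of other lists, all mtDNA and TOP members and second probes were added after their values were seen. Members, lists and tests were chosen with earlier results of these data known. Lists are described by counts and medians without a test. RefSeq accessions of 13669 tested probes were looked up in RefSeq's table of genes (GRCm38.p6), where 13160 were found, 12484 under the same symbol. The number of arrays limits the precision. Alternatives covered the normalization, background (normexp, offset 50), filter, test, slide, brightness and left-out mice. Bins of protein length were not run, since no protein table was used here. Scripts were tested on simulated data. Some genes are counted in their lists but not reported here by name.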

Additional observations from a re-analysis of the deposited data

Results flagged for a closer look

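In total 6 named genes had ratios below 0 in all 3 Het mice and above 0 in all 3 WT mice. The difference between the genotypes did not pass for any of them (limma, adjusted p of 0.102 to 0.110). Only named genes were searched, and the share of all genes with this pattern was not counted. Polysome arrays were brighter than whole-muscle arrays in every Het mouse but not in every WT mouse, and the part of this was not tested. Sirt6, a nuclear deacetylase, had signals of 8.21, 7.59 and 8.85 in Het polysomes and 8.81, 8.30 and 9.51 in Het whole muscle, a ratio of -0.66 in Het against 0.49 in WT. Pprc1, a coactivator of mitochondrial gene expression, had -1.38 against 0.92, with Het mice at -0.45, -2.02 and -1.67. Dleu2 (-0.50 against 0.94), Snhg10 (-0.71 against 0.98) and the telomerase RNA Terc (-0.47 against 1.0) are non-coding, and Olfr1180 (-1.09 against 1.37) is an olfactory receptor gene. By list medians, 16 olfactory receptor genes, which have no known role in muscle and are dim here, lay at -0.51 in Het and 0.87 in WT, and 24 heat shock and chaperonin genes lay at 0.26 in Het and -0.15 in WT; these list differences were not tested.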

How the results depend on the processing

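Under some alternatives direction could not change, because they leave the mean ratios as reported. These are no replicate block, the t-test, the trend, either change of filter and the 6 ratios of both genotypes. All 958 called genes kept their direction under every alternative run except the mean of a gene's probes (956) and brightness as a term (953 of 955). Of them 958 stayed called with quantile normalization over the 6 Het arrays, 877 with 75th percentile scaling, 606 with normexp background, 621 in the authors' table, 866 without the replicate block, 578 by the methods' t-test, 745 with 6 ratios of both genotypes and 555 with a trend in the prior spread. The counts of higher and lower probes, 742 and 891 as reported, and 2192 genes at the study's threshold, became 231, 560 and 692 with normexp and 233, 587 and 716 in the authors' table. By the methods' t-test 282 were higher and 531 lower. With every array of both groups above background 388 were higher and the study's threshold gave 1193 genes. With no filter, with slide as a term, with brightness as a term, and without any 1 mouse, 0 were higher and 0 lower. Of the called genes 958, 920, 510 and 799 to 910 had an unadjusted p under 0.05 (limma) and an absolute ratio above 1. Within slide 2, 4 were higher and 2 lower, and with the trend 0 were higher. No filter tests more probes, a left-out mouse leaves 2 ratios, and slide as a term is a further coefficient fitted to the same few ratios. What each setting did to the calls was not tested. Of all calls, 45.4% were higher as reported, against 40.2% with 75th percentile scaling, 29.2% with normexp, 28.4% in the authors' table, 29% on all 6 arrays, 34.7% by the t-test and 0% with the trend. Without the replicate block, so unpaired, 635 probes were higher and 832 were lower in polysomes.

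Under 75th percentile scaling list medians came to -2.28 for mtDNA, -1.17 for ribosomal proteins, -0.74 for other TOP mRNAs, 0.14 for the respiratory chain and 0.51 for fatty acid oxidation, while the median of all genes was 0.0037. With brightness as a term they were -3.44 for mtDNA, -0.61 for other TOP mRNAs, 0.75 for the respiratory chain and 0.47 for fatty acid oxidation. The respiratory chain median was 0.72 within slide 1 and 0.44 within slide 2, where that of fatty acid oxidation was 0.56. Without 1 mouse the respiratory chain median was 0.54 to 0.60. The sign of a list's median was kept in 26 to 30 of 30 lists, counting the settings that leave the ratios unchanged.

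Ratios of a few genes that were not called changed sign. Rps9 was at -0.30 with 75th percentile scaling. Snhg3 was at 0.016 with normexp, 0.019 in the authors' table, 0.014 with slide as a term and 0.59 within slide 1, and Ibtk at 0.031 with normexp and 0.027 within slide 1. Within slide 1 ND6 was at -0.83 and Hist1h2ao at 0.46, and within slide 2 Cpt1a was at 0.29, Bgn at 0.38, Nap1l1 at -0.027, Npm1 at 0.035 and Dleu2 at 0.051. With brightness as a term Cpt1a was at 1.13, Bgn at 0.059, Psmd14 at 0.42, Fosb at 0.49, Hist1h2ao at 0.76 and Nap1l1 at -0.13, and by the mean of probes Cpt1a was at 0.069 and Nap1l1 at -0.052. Without 1 mouse each, ND6 ran from -0.042 to 0.086, Ibtk from -0.27 to 0.15, Snhg3 from -0.13 to 0.037 and Npm1 from -0.027 to 0.0074. The 3 mice, brightness that moved with the RNA fraction and dim whole-muscle arrays limit these values.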
